A study of Mus musculus with 6 samples.

Results

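Collagen chains are the 44 rows, of 55011 in the table of counts, whose gene symbol reads Col, a number, the letter a and a number. All 44 matched exactly 1 gene of GENCODE M21. They were grouped as 11 fibrillar chains, 6 basement membrane chains (type IV) and 27 other chains. RNA came from whole visceral fat of male C57BL/6 mice, 30 weeks old, after 14 weeks of low-fat and then 16 weeks of high-fat diet, taken at zeitgeber time 0 h (lights on). All of them carried Foxp3.Cre-YFP, a Cre recombinase with YFP expressed from Foxp3, the gene that defines regulatory T cells. They were labelled Bmal1WT (3 libraries) or Bmal1KO (3 libraries), after the clock gene Bmal1 (symbol Arntl). Such a Cre acts where Foxp3 is expressed, whereas the RNA here came from all cells of the tissue. No label states that each library came from a separate mouse, so p-values measure only the spread between these libraries.

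Collagens are matrix proteins built from alpha chains wound into a rope-like helix in which glycine recurs at regular steps. Fibrillar types (I, III, V) form the banded fibres that give tissue its strength, and in fat they are made mainly by stromal fibroblasts and their progenitors. Type IV forms the sheet of the basement membrane that wraps every adipocyte and underlies endothelium, and type VI forms beaded filaments that lie close to it. Growth of fat in obesity is known to be accompanied by deposition of collagens, among them types I, III and VI.

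Several chains lie beside each other in the genome, and the type IV genes come in pairs that start from a common stretch and run apart. In mm10, Col4a1 (chromosome 8, 11198423 to 11312826, minus strand) and Col4a2 (chromosome 8, 11312805 to 11449287, plus strand) overlap by 22 bases at their starts. Col4a4 and Col4a3 are separated by 71 bases on chromosome 1, and Col4a6 and Col4a5 by 1308 bases on chromosome X, in the same arrangement. Col3a1 and Col5a2 end 24614 bases apart on chromosome 1, and Col6a2 and Col6a1 lie 85161 bases apart on the same strand of chromosome 10. RefSeq windows (GRCm38.p6, the assembly of mm10) of 250 bases before to 50 after the start were at hand for 35 of the 44 chains, 38 windows in all. Col1a1, Col5a2, Col12a1 and Col14a1 were among the chains without a window. Shown here are the windows of Col4a1 and Col4a2, the abundant type IV pair, of 2 abundant fibrillar chains, and of Col6a1 and Col5a1, whose levels did not overlap between the groups. Capitals mark the CCAAT box (CCAAT, or ATTGG on the other strand) and the TATA box (TATAAA, or TTTATA).
Col4a1, chr8:11312777-11313076, minus strand: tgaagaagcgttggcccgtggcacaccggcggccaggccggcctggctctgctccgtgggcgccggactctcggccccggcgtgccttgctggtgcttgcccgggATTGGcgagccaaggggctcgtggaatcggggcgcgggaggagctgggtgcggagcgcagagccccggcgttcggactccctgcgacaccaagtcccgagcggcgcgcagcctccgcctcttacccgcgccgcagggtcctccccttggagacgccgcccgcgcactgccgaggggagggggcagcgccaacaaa
Col4a2, chr8:11312555-11312854, plus strand: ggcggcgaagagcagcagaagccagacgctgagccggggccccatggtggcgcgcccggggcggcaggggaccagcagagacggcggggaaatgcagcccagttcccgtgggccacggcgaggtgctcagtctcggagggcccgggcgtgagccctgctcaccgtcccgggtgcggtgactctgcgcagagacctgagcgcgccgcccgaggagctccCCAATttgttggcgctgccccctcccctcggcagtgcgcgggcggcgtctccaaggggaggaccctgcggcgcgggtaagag
Col3a1, chr1:45311288-45311587, plus strand: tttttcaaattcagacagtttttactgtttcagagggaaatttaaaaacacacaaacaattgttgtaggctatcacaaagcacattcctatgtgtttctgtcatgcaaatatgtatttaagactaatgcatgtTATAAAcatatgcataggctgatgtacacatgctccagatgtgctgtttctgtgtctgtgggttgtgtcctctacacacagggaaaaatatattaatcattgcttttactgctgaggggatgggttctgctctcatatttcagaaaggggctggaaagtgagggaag
Col1a2, chr6:4505368-4505667, plus strand: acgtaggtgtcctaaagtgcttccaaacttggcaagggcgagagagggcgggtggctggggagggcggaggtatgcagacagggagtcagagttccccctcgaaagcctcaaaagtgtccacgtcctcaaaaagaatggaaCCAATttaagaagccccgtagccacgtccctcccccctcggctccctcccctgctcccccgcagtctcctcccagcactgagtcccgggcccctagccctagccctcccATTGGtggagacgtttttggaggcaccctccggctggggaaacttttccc
Col6a1, chr10:76725995-76726294, minus strand: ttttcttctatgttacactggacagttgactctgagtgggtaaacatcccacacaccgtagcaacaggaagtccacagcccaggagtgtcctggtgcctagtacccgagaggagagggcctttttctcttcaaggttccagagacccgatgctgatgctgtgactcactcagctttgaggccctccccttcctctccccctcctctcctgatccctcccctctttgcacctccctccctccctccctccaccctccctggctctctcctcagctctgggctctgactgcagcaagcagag
Col5a1, chr2:27886175-27886474, plus strand: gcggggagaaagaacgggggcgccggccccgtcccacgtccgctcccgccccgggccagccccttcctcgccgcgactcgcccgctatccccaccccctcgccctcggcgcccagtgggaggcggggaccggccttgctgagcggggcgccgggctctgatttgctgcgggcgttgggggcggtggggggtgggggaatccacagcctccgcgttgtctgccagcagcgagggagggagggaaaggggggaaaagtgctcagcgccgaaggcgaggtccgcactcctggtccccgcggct
The Col4a1 and Col4a2 windows share 78 bases, read from opposite strands. G and C made up 74.0% of the Col4a1 window and 75.0% of the Col5a1 window but 37.7% of that of Col3a1. The E-box CACGTG, the motif that CLOCK and BMAL1 bind, is its own reverse complement and was in 0 of the 38 windows, where 7.15% of all 32851 windows held it. A CCAAT box was in 13 of the 38 windows (37.4% of all windows) and TATAAA in 5 (13.6% of all windows), searched on both strands. At the share over all windows few of 38 would hold an E-box, so its absence here says little. These are matches of letters in short windows, and no binding was measured.

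Libraries held 6514620 to 9529198 counts, of which collagen chains took between 0.421% (Bmal1KO replicate 1) and 0.634% (Bmal1WT replicate 1). Where 3 values follow each other, they are those of replicates 1, 2 and 3. The library of the lowest and that of the highest share both stood apart. Bmal1KO replicate 1, the shallowest, had counts on 30019 genes against 19009 to 20145 in the others, and Bmal1WT replicate 1 held 277 CPM (counts scaled to library size) on 8 epididymis genes against at most 2.11 CPM elsewhere. Arntl was at 33.2 ± 6.16 CPM (SD, n = 3) in the Bmal1WT libraries and 40.1 ± 8.06 CPM in the Bmal1KO libraries, and Foxp3 had 0 to 3 counts per library. In whole tissue neither gene checks a deletion aimed at Foxp3-expressing cells. The markers of adipocytes (6 of 6 genes) had counts in every library.

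No collagen chain passed the test between Bmal1KO and Bmal1WT. Of the 44 chains 28 had enough counts in enough libraries to be tested with edgeR's quasi-likelihood test. Of these, 0 had an adjusted p under 0.05 (smallest adjusted p = 0.416 by edgeR). Over all genes the share called was 0% of 13859. At an unadjusted p under 0.05, 6 chains were lower in the Bmal1KO libraries and 0 higher, which is 21.4% of those tested, where 9.31% of all genes passed that threshold, 4.26% lower and 5.05% higher. The 6 were Col5a1, Col5a3, Col4a1, Col6a1, Col6a2 and Col12a1, and DESeq2 and limma voom gave the same 6 at that threshold and called 0 chains after adjustment. With DESeq2 1.92% of 34476 genes were lower at that threshold, and 0.417% of the 14400 genes with an adjusted p were called. DESeq2 was run without edgeR's filter and took in all 44 chains, so its share is not on the scale of the 21.4%. With voom 6.11% of all genes tested were lower. In 5 of the 6 (all but Col5a3) the Bmal1KO libraries all lay under the Bmal1WT libraries, 17.9% of tested chains against 7.85% of all genes, and 0 tested chains lay wholly above against 7.83% of all genes. The median log2 fold change of the 28 was -0.06, with 13 above and 15 below 0, and that of all genes was 0.02. The count of 6 was 2 (Col12a1 and Col5a1; 2.77% of all genes lower and 4.84% higher) without Bmal1WT replicate 3, the library highest for Col4a1, Col4a2, Col6a1 and Col6a2. Without Bmal1WT replicate 1 and Bmal1KO replicate 1 together it was 13, against 7.62% of all genes lower and 7.28% higher. Of the 13, Col4a1, Col4a2, Col5a1, Col5a3, Col6a1, Col6a2, Col15a1 and Col18a1 were lower and Col1a2, Col4a5, Col6a5, Col8a1 and Col14a1 higher, and none passed after adjustment (smallest adjusted p = 0.0753 by edgeR, for Col5a3).

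**Figure D1:**
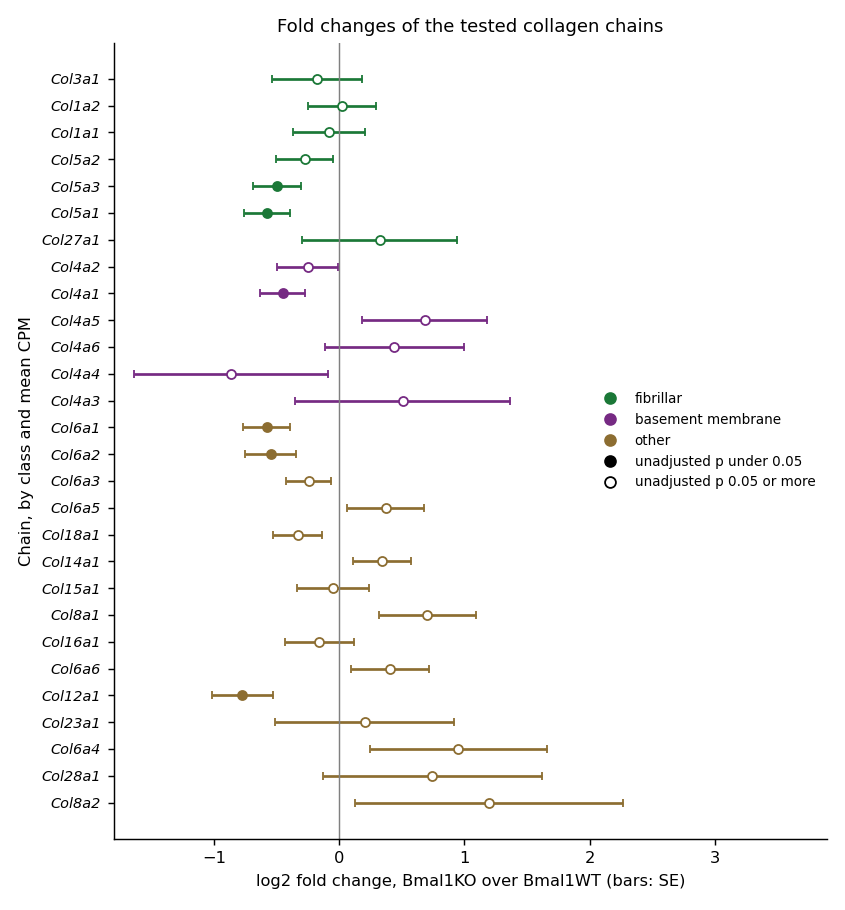
Log2 fold change of Bmal1KO over Bmal1WT (x axis, points) with its SE (bars) for the 28 tested collagen chains (y axis), ordered by class and, within a class, by mean CPM. Filled points mark the 6 chains with an unadjusted p under 0.05, all to the left of 0, from Col4a1 at -0.45 to Col12a1 at -0.78.

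Levels of different chains were compared per length of mature RNA. This is a rough scale, because cDNA was primed with oligo(dT) and the evenness of coverage along long transcripts was not examined. In Bmal1WT, Col3a1 stood at 291 ± 114 CPM per kb (SD, n = 3), Col6a1 at 173 ± 34.8, Col1a2 at 114 ± 31.2, Col6a2 at 106 ± 26.0, Col4a2 at 73.7 ± 24.5, Col1a1 at 67.2 ± 18.6 and Col4a1 at 44.2 ± 6.57. Col1a2 and Col6a2 differed by less than the SD of either, and so did Col4a2 and Col1a1. In Bmal1KO, Col3a1 stood at 257 ± 124 CPM per kb and Col1a2 and Col6a1 at 115 ± 36.6 and 116 ± 14.4. The order depends on which transcripts set the length: with all annotated transcripts in place of the protein-coding basic set, Col1a2 moved from rank 3 to rank 6 over all libraries and Col3a1 stayed at rank 1.

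Fibrillar chains were the largest class of collagen counts in every library, and their sum differed far more between libraries of a group than between groups. The summed CPM of the 11 chains was 4167, 2305 and 2925 in the Bmal1WT libraries and 1779, 2859 and 3784 in the Bmal1KO libraries. The Bmal1WT library with epididymis counts was thus the highest and the Bmal1KO library with the most genes detected the lowest. The sum was 3132 ± 948 CPM (SD, n = 3) in the Bmal1WT libraries and 2807 ± 1003 CPM in the Bmal1KO libraries, with no test made on a sum over members. Type IV chains summed to 664, 668 and 1007 CPM in the Bmal1WT libraries and to 759, 517 and 614 CPM in the Bmal1KO libraries. Here Bmal1WT replicate 3 was the highest library and Bmal1KO replicate 2 the lowest. Other collagens summed to 1854, 1562 and 2286 CPM in the Bmal1WT libraries and to 1587, 1401 and 1450 CPM in the Bmal1KO libraries, the smallest spread of the 3 classes within Bmal1KO. On the log2 scale the Bmal1KO mean minus the Bmal1WT mean was -0.18 for fibrillar, -0.30 for type IV and -0.35 for other chains, and each class overlapped between the groups. Single chains did not all share the sign of their class. Of the 7 tested fibrillar chains 2 had a log2 fold change above and 5 below 0 (median -0.18), of the 6 type IV chains 3 and 3 (median 0.09), and of the 15 tested other chains 8 and 7 (median 0.20), so that for type IV and other chains the median and the sum differed in sign.

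The balance of fibrillar to basement membrane collagen split each group. The ratio of the summed CPM was 6.27, 3.45 and 2.90 in the Bmal1WT libraries and 2.34, 5.53 and 6.16 in the Bmal1KO libraries. In Bmal1WT 1 library was high and 2 were low, and in Bmal1KO 1 was low and 2 were high. The group means were 4.21 ± 1.81 (SD, n = 3) and 4.68 ± 2.05. Left out together, Bmal1WT replicate 1 and Bmal1KO replicate 1 moved the log2 difference of this ratio from 0.12 to 0.88, and that of the fibrillar sum from -0.18 to 0.35. For both measures they are the highest Bmal1WT and the lowest Bmal1KO library. Leaving them out therefore raises these differences by construction, and only the size of the shift is informative. Leaving out 1 library at a time, the fibrillar sum changed sign without Bmal1WT replicate 1 (0.051) and without Bmal1KO replicate 1 (0.11), and the ratio ran from -0.14 to 0.56. As shares of all collagen CPM, fibrillar chains held 62.3%, 50.8% and 47.0% in the Bmal1WT libraries and 43.1%, 59.8% and 64.7% in the Bmal1KO libraries.

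**Figure D2:**
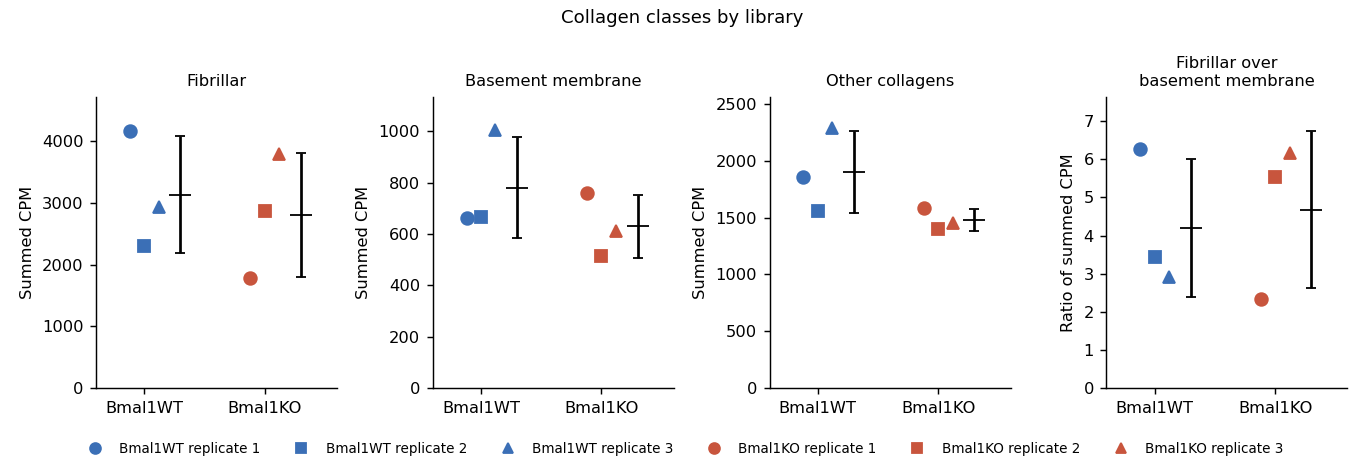
Summed CPM (y axis, from 0) of fibrillar, type IV basement membrane and other collagen chains, and the ratio of the fibrillar to the type IV sum, for each library (points) of Bmal1WT and Bmal1KO (x axis), with the group mean and SD (black). Bmal1WT replicate 1 (6.27) and Bmal1KO replicate 1 (2.34) lie at the ends of the ratio, and the groups overlap in every panel.

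Col3a1, the chain of type III collagen, was the most abundant chain by CPM and per length. Its level was 2326, 1110.1 and 1420.0 CPM in the Bmal1WT libraries and 769, 1379 and 2144 CPM in the Bmal1KO libraries. The groups overlapped over nearly their whole range, at 1619 ± 632 and 1431 ± 689 CPM (SD, n = 3; log2 fold change -0.18, SE 0.36, adjusted p = 0.897 by edgeR). Col1a1 and Col1a2 encode the chains of type I collagen, the main fibre of connective tissue. Col1a2 was at 785, 454 and 584 CPM in the Bmal1WT libraries and at 392, 707 and 752 CPM in the Bmal1KO libraries (log2 fold change 0.02, SE 0.27). Col1a1 was at 505, 285 and 406 CPM in the Bmal1WT libraries and at 223, 420.2 and 489 CPM in the Bmal1KO libraries (-0.08, SE 0.29). All 3 genes were highest in Bmal1WT replicate 1 and lowest in Bmal1KO replicate 1, and the other 4 libraries lay between. Without Bmal1KO replicate 1 the log2 fold changes were 0.12, 0.26 and 0.19 for Col3a1, Col1a2 and Col1a1, and without Bmal1WT replicate 1 they were 0.19 for Col3a1 and 0.14 for Col1a1, so their sign rests on single libraries. Scaled by library size alone, Col1a1 was at 0.021. Per length, the ratio of Col1a1 to Col1a2 stayed between 0.514 and 0.627 in the 6 libraries, while that of Col3a1 to Col1a1 ran from 3.50 to 4.91.

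Type V collagen sits inside type I fibres and sets how wide they grow. Its chains did not follow a common pattern. Col5a1 (mm10 chromosome 2, 27886425 to 28039514) was at 131, 99.2 and 128 CPM in the Bmal1WT libraries and at 94.6, 69.6 and 76.4 CPM in the Bmal1KO libraries. Every Bmal1KO library lay under every Bmal1WT library, by a small margin for Bmal1KO replicate 1 (log2 fold change -0.58, SE 0.18, unadjusted p = 0.00912, adjusted p = 0.418 by edgeR). Col5a3 (chromosome 9, 20770050 to 20815067), the third chain of this type, was at 168, 189.8 and 213 CPM and at 169.9, 113 and 122 CPM. Bmal1KO replicate 1 lay within the Bmal1WT range, the other Bmal1KO libraries under it (-0.50, SE 0.19, unadjusted p = 0.0241, adjusted p = 0.477 by edgeR). Leaving out Bmal1KO replicate 1 therefore enlarges the difference by construction. Without that library Col5a3 was at -0.70 (SE 0.16, adjusted p = 0.0606 by edgeR), the smallest adjusted p of any chain in that fit. In the other alternatives its adjusted p ran from 0.0753 to 0.710. Col5a2, the neighbour of Col3a1, was at 242, 165 and 169 CPM in the Bmal1WT libraries and at 114, 165 and 196 CPM in the Bmal1KO libraries (-0.28, SE 0.22). Its highest and lowest libraries were those of Col3a1. The per-length ratio of Col5a1 to Col5a2 was 0.427, 0.475 and 0.598 in the Bmal1WT libraries and 0.651, 0.333 and 0.308 in the Bmal1KO libraries, highest in Bmal1KO replicate 1. Col27a1, a fibrillar chain known from cartilage, was low at 2.23 to 11.4 CPM, highest in Bmal1KO replicate 1 (0.32, SE 0.62). The remaining fibrillar chains Col2a1, Col11a1, Col11a2 and Col24a1 had 0 to 12 counts per library and were not tested.

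**Figure D3:**
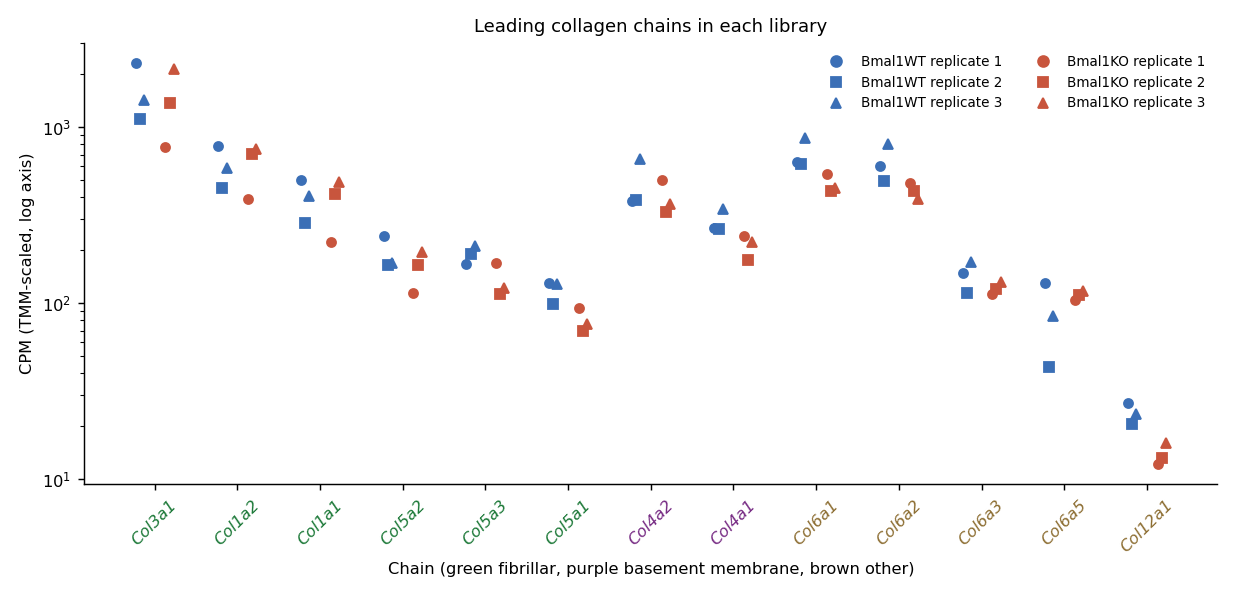
CPM after TMM scaling (y axis, log scale) in each library (points; colour for group, shape for replicate) of the 12 most abundant collagen chains and Col12a1 (x axis). For Col3a1, Col1a2 and Col1a1 the Bmal1KO and Bmal1WT points overlap, and for Col5a1, Col4a1, Col6a1, Col6a2 and Col12a1 all Bmal1KO points lie under all Bmal1WT points.

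Type IV collagen RNA in this fat was almost wholly Col4a1 and Col4a2, the chains found in basement membranes of nearly all tissues. Col4a1 was at 269, 266 and 342 CPM in the Bmal1WT libraries and at 241, 177 and 224 CPM in the Bmal1KO libraries. The groups did not overlap (log2 fold change -0.45, SE 0.18, unadjusted p = 0.0287, adjusted p = 0.477 by edgeR). Col4a2, which starts from the same stretch of DNA, was at 379.9, 388 and 657 CPM in the Bmal1WT libraries and at 500.1, 329 and 369 CPM in the Bmal1KO libraries. Bmal1KO replicate 1 had the second highest level there, so the groups overlapped (-0.25, SE 0.24, adjusted p = 0.775 by edgeR). Without Bmal1WT replicate 3, which was highest for both genes, Col4a2 was at 0.059 and Col4a1 at -0.32. The per-length ratio of Col4a1 to Col4a2 ran from 0.469 to 0.689.

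Col4a3, Col4a4, Col4a5 and Col4a6 belong to networks found in kidney, lung and a few other tissues, and they were scarce here. Col4a5 was at 7.99, 4.10 and 2.26 CPM in the Bmal1WT libraries and at 5.41, 6.91 and 10.7 CPM in the Bmal1KO libraries (0.68, SE 0.50). Col4a6 was at 5.25, 5.27 and 1.72 CPM and at 8.42, 3.06 and 5.21 CPM (0.44, SE 0.56). Bmal1WT replicate 3, the highest library for Col4a1 and Col4a2, was the lowest for both of these. Col4a4 had 9, 32 and 22 counts in the Bmal1WT libraries and 16, 6 and 7 in the Bmal1KO libraries (-0.87, SE 0.77). Col4a3 had 15, 12 and 13 counts in the Bmal1WT libraries and 16, 2 and 31 in the Bmal1KO libraries (0.51, SE 0.86), and 5.65% of its exon bases are shared with a transcript of the opposite strand, which these libraries cannot separate. Groups overlapped for all 4 genes.

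In type VI collagen the log2 fold changes of Col6a1, Col6a2 and Col6a3 were below 0 and those of Col6a4, Col6a5 and Col6a6 above 0. Col6a1 and Col6a2, needed in every type VI molecule, were the leading chains outside the fibrillar class. Col6a1 (mm10 chromosome 10, 76708792 to 76726168) was at 634, 621 and 874 CPM in the Bmal1WT libraries and at 543, 432 and 451 CPM in the Bmal1KO libraries. All Bmal1KO libraries lay under all Bmal1WT libraries (log2 fold change -0.58, SE 0.19, unadjusted p = 0.0112, adjusted p = 0.423 by edgeR). Col6a2 (chromosome 10, 76595762 to 76623630) was at 607, 495 and 804 CPM and at 482, 432 and 390.2 CPM. The groups again did not overlap, with Bmal1KO replicate 1 close to Bmal1WT replicate 2 (-0.55, SE 0.20, unadjusted p = 0.0200, adjusted p = 0.463 by edgeR). With any 1 library left out, the log2 fold change ran from -0.69 to -0.40 for Col6a1 and from -0.70 to -0.34 for Col6a2. Groups that do not overlap keep their sign in such fits, so these ranges tell only of its size. Col6a3, the long chain whose cut end is the adipose peptide endotrophin, was at 148, 114 and 173 CPM and at 114, 121 and 133 CPM, overlapping (-0.24, SE 0.18). Per length, Col6a2 to Col6a1 stayed between 0.544 and 0.682, and Col6a3 to Col6a1 between 0.069 and 0.111.

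Col6a4, Col6a5 and Col6a6, which can take the place of Col6a3, lie side by side on chromosome 9 and had log2 fold changes of 0.95 (SE 0.71), 0.37 (SE 0.31) and 0.40 (SE 0.31). Col6a5 was at 129.7, 43.5 and 84.4 CPM in the Bmal1WT libraries and at 105, 112 and 117 CPM in the Bmal1KO libraries. Its Bmal1WT libraries thus spread far more widely than its Bmal1KO libraries, which lay inside them. Col6a6 was at 18.9, 9.37 and 22.2 CPM and at 23.6, 20.9 and 22.3 CPM, and Bmal1WT replicate 2 was lowest for all 3 genes. The per-length ratio of Col6a5 to Col6a3 was 1.02, 0.444 and 0.569 in the Bmal1WT libraries and 1.08, 1.08 and 1.02 in the Bmal1KO libraries, so that the groups did not overlap, by a margin that is small against Bmal1WT replicate 1. With 3 libraries against 3 the smallest 2-sided exact p is 0.1, and none was computed for ratios of members.

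Among collagens that bind to fibres, Col12a1 had the smallest unadjusted p of all chains in the main edgeR fit. With DESeq2 and voom that place fell to Col6a1, and with the replicate block to Col5a1. The protein of Col12a1 decorates type I fibres in tissue under load. Col12a1 was at 27.0, 20.5 and 23.7 CPM in the Bmal1WT libraries and at 12.2, 13.2 and 16.1 CPM in the Bmal1KO libraries. The groups did not overlap (log2 fold change -0.78, SE 0.24, unadjusted p = 0.00882, adjusted p = 0.416 by edgeR). With any 1 library left out, which cannot turn the sign of such groups, the log2 fold change ran from -0.90 to -0.67. With Bmal1WT replicate 1 and Bmal1KO replicate 1 both left out it was at -0.58 (SE 0.30, unadjusted p = 0.0821). Col14a1, of the same subfamily and a marker of fibroblasts, was at 82.6, 55.0 and 64.6 CPM and at 59.4, 91.3 and 105 CPM (0.34, SE 0.23). The 2 genes thus had opposite signs, and Bmal1KO replicate 1 was lowest for Col12a1 and second lowest for Col14a1. Col16a1 was at 23.5 to 28.3 CPM in the Bmal1WT libraries and at 14.9 to 32.1 CPM in the Bmal1KO libraries (-0.16, SE 0.28).

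The multiplexins Col15a1 and Col18a1 lie in the zone of the basement membrane, and the end of Col18a1 is cut to endostatin, an inhibitor of vessel growth. Col18a1 was at 93.3, 98.7 and 125 CPM in the Bmal1WT libraries and at 101, 83.6 and 67.6 CPM in the Bmal1KO libraries (-0.33, SE 0.19). Col15a1 was at 38.7, 53.8 and 61.3 CPM and at 74.9, 35.0 and 39.2 CPM (-0.05, SE 0.29). Bmal1KO replicate 1 was the highest library for Col15a1 and the second highest for Col18a1, as for Col4a2, whereas Bmal1KO replicates 2 and 3 were the 2 lowest for Col4a2 and Col18a1. Counting these multiplexins and Col7a1 with type IV changed the log2 difference of the basement membrane sum from -0.30 to -0.29. Col8a1, of the short-chain network collagens of vessel walls, was at 36.0, 16.5 and 18.4 CPM and at 23.2, 30.9 and 61.4 CPM (0.70, SE 0.39), and Col8a2 had 0 to 18 counts (1.19, SE 1.07). The transmembrane chain Col23a1 (0.20, SE 0.71) and Col28a1 (0.74, SE 0.87), known from Schwann cells, stayed under 6 CPM in every library.

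**Figure D4:**
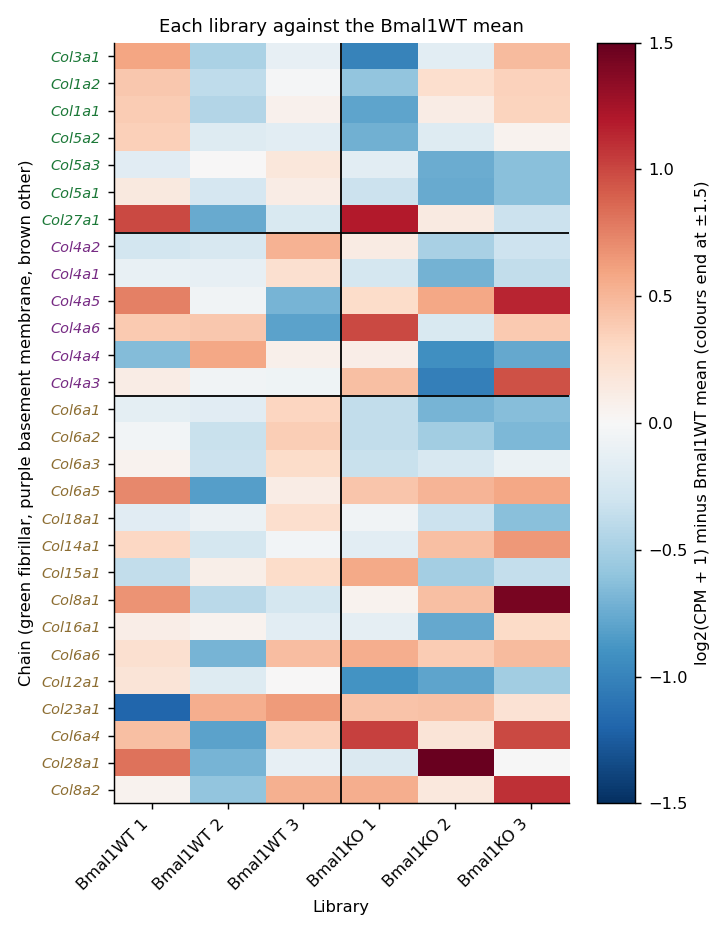
Log2(CPM + 1) of each of the 28 tested chains (rows, by class) in each library (columns) minus the mean of the 3 Bmal1WT libraries, blue lower and red higher, with colours ending at ±1.5. Bmal1KO replicate 1 is low for Col3a1, Col1a1, Col1a2 and Col5a2, and Bmal1KO replicates 2 and 3 are lower than Bmal1KO replicate 1 for Col5a1, Col5a3, Col4a1, Col6a1, Col6a2 and Col18a1, of which Col5a1, Col4a1, Col6a1 and Col6a2 are under every Bmal1WT library in all 3.

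The 16 chains that were not tested reached the filter's minimum level in too few libraries. Summed over the 16, there were 34, 20 and 23 counts in the Bmal1WT libraries and 137, 28 and 52 in the Bmal1KO libraries. Bmal1KO replicate 1 had at least 1 count on all 16, against 3 to 9 of them in the other libraries, as it had on genes at large. Col7a1, the chain of anchoring fibrils under epithelia, had 8, 4 and 7 counts and then 34, 8 and 15. Col10a1, Col13a1, Col19a1 and Col9a2 had counts in Bmal1KO replicate 1 only, between 1 and 8. Col11a1 had 0, 0 and 0 counts and then 7, 3 and 2, and Col9a3 had 1, 0 and 0 and then 7, 2 and 6, both chosen after their values were seen because the groups did not overlap. The share of untested genes at large without overlap was not computed. Of the exon bases of Col9a3, 6.07% are shared with Tcfl5 on the opposite strand, which these libraries cannot separate. No fold is given for the 16 chains. Unadjusted p-values under 0.05 came up for Col11a1 without a filter on low counts and for Col7a1 without Bmal1KO replicate 2, and 0 of the 16 passed after adjustment in any fit that took them in.

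Genes that modify, cut and bind collagen likewise held none that passed the test over all genes, in lists chosen by function. Over all genes, 5.05% were higher and 4.26% lower at an unadjusted p under 0.05 by edgeR, and 7.85% lay wholly lower without overlap. Of 15 tested genes of 17 for chain modification, 0 were higher and 1 lower at that threshold, with a median log2 fold change of -0.14. Plod1, a lysyl hydroxylase, was at 227, 192 and 219 CPM in the Bmal1WT libraries and at 148, 159 and 170.0 CPM in the Bmal1KO libraries, without overlap (-0.42, SE 0.15, adjusted p = 0.461 by edgeR). P3h2, a prolyl hydroxylase of basement membrane collagen, had 45, 42 and 38 counts and then 6, 2 and 29, without overlap (-1.57, SE 0.79). The collagen chaperone Serpinh1, named after its values were seen, was at 75.1 ± 1.83 CPM (SD, n = 3) and 68.2 ± 1.59 CPM (-0.14, SE 0.15). Of 11 tested genes of 13 for processing and cross-linking, 0 were higher and 1 lower (median 0.15). That was Pcolce2, an enhancer of propeptide removal, at 162, 172 and 169 CPM and at 115, 129 and 84.2 CPM, without overlap (-0.62, SE 0.18, adjusted p = 0.414 by edgeR). Loxl3, a lysyl oxidase, was at 23.7, 14.9 and 13.8 CPM and at 17.3, 25.5 and 29.3 CPM (0.46, SE 0.29).

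Of 8 tested collagen receptors of 11, 1 was higher and 0 lower at that threshold (median -0.11), against 5.05% and 4.26% of all genes. It was Lair1, an inhibitory receptor of immune cells, at 72.3, 91.7 and 75.9 CPM in the Bmal1WT libraries and at 89.0, 160.0 and 130.2 CPM in the Bmal1KO libraries (0.66, SE 0.22, adjusted p = 0.423 by edgeR). Bmal1KO replicate 1 lay in the Bmal1WT range, so leaving it out enlarges the difference by construction. Without it Lair1 passed (0.86, adjusted p = 0.0452 by edgeR), in a fit that called 46 genes higher and 110 lower of 14247. That pass is therefore not separate support for a difference. In the other alternatives the adjusted p of Lair1 ran from 0.0974 to 0.709. Macrophage markers (6 genes) summed to 2722 to 3579 CPM in the Bmal1WT libraries and to 2167, 4138 and 4736 CPM in the Bmal1KO libraries, and their part in the Lair1 level was not tested. Adgrg1, an adhesion receptor that binds collagen III, was at 29.4, 35.0 and 50.9 CPM and at 32.9, 26.0 and 17.2 CPM (-0.60, SE 0.28). Among basement membrane partners, 14 of 15 tested, 0 were higher and 1 lower (median -0.28, 10 of 14 below 0). That was the laminin chain Lama4, which is found around vessels and adipocytes, at 104, 82.0 and 84.0 CPM and at 65.1, 51.9 and 65.6 CPM, without overlap (-0.56, SE 0.18, adjusted p = 0.416 by edgeR). The laminin chain Lamb1 was at 117, 131 and 167 CPM and at 122, 87.9 and 105 CPM, overlapping (-0.40, SE 0.19). Of 15 genes of TGF-beta and PDGF signalling, all tested, 0 passed even the unadjusted threshold (median 0.06). The ligand Pdgfa was at 23.2, 32.1 and 28.7 CPM and at 23.8, 19.0 and 18.9 CPM (-0.45, SE 0.23). The TGF-beta target Ccn2 had 25, 10 and 7 counts and then 12, 30 and 43 (1.14, SE 0.70).

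Markers of cells that can make collagen differed between libraries. Stromal progenitor markers (6 genes, all detected) summed to 630.5, 511 and 508 CPM in the Bmal1WT libraries and to 469, 585 and 758 CPM in the Bmal1KO libraries. The highest and the lowest library of this sum were those of its most abundant gene, Fbn1 (fibrillin, itself a matrix gene), while the order between them differed. Fbn1 was at 275, 158 and 219 CPM and at 130.1, 193 and 337 CPM. Without Fbn1, a choice made after seeing the data, the other 5 genes summed to 356, 353 and 289 CPM and to 339, 392 and 421 CPM. The library lowest for fibrillar collagen, Bmal1KO replicate 1, was lowest for the 6 genes but not for the 5, and Pdgfra was highest there (50.8 CPM). Endothelial markers (6 genes, all detected) summed to 461, 281 and 617 CPM in the Bmal1WT libraries and to 323, 216 and 211 CPM in the Bmal1KO libraries. The library with the most endothelial RNA was also the highest for type IV collagen, and the 2 with the least were the 2 lowest, also without the most abundant of these genes, Cldn5. Between these ends the orders differed. Bmal1WT replicate 1 held more endothelial RNA than Bmal1KO replicate 1 (461 against 323 CPM) but less type IV collagen (664 against 759 CPM). Mural cell markers (6 genes, all detected) summed to 310.3 to 333 CPM in the Bmal1WT libraries and to 219 to 229 CPM in the Bmal1KO libraries, but of the 6 genes only Acta2 did not overlap, and without it the sums were 72.3 to 108 CPM and 40.1 to 80.3 CPM, overlapping. Adipocyte markers summed to 22353 to 26126 CPM in the Bmal1WT libraries and to 27745, 17172 and 13476 CPM in the Bmal1KO libraries. Their 2 lowest libraries were thus also the 2 lowest for type IV collagen. Mesothelial markers summed to 198 to 366 CPM and 413 to 475 CPM (overlapping without Upk3b). T cell markers summed to 13.9 to 45.6 CPM and to 61.5 to 124 CPM, without overlap. The part of these cells in the collagen differences was not tested, and in whole tissue fewer cells of a type cannot be told apart from less RNA per cell.

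**Figure D5:**
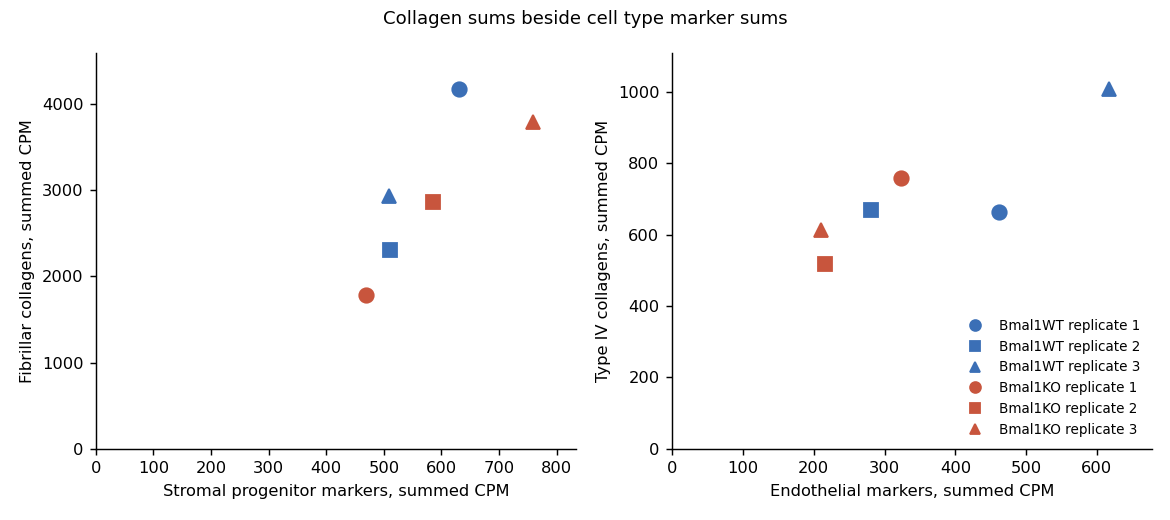
Summed CPM of fibrillar collagens (y axis, left) against that of 6 stromal progenitor markers (x axis), and of type IV collagens (right) against that of 6 endothelial markers, for each of the 6 libraries. Bmal1KO replicate 1 is lowest on both axes at the left (469 and 1779 CPM; on the marker axis only with Fbn1 in the sum), and Bmal1WT replicate 3 is highest on both axes at the right (617 and 1007 CPM).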

How the data were processed

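The authors deposited counts per gene symbol for 6 libraries of whole visceral fat. Per the submitters' processing notes, reads were aligned with STAR 2.7.3a to mm10 and counted with featureCounts; which annotation and counting settings were used is not given in the sources used here. Per the labels' protocols, cDNA was primed with oligo(dT), amplified from 2 ng of RNA and cut with Nextera XT, which keeps no strand and no molecular identifiers. Amplified copies are therefore counted.

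Sample titles gave each library's group and number. Counts were tested with edgeR 4.0.16 (R 4.3.3): filterByExpr, TMM scaling, quasi-likelihood F-test with robust dispersion, no covariates, Benjamini-Hochberg adjustment over 13859 genes, threshold 0.05. The test was tried on simulated data with known changes. The SE is the unshrunken coefficient divided by the root of F. Alternatives used DESeq2 1.42.0, limma 3.58.1 voom, other scalings and filters, a replicate block and left-out libraries.

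Chains were taken by symbol. Named with values in every library are the 12 of highest CPM, those with unadjusted p under 0.05 and all type IV chains, plus 2 genes of smallest p per functional list. Members and lists were chosen with earlier results of these data known. Coordinates and lengths (exons of protein-coding transcripts of the basic set) are GENCODE M21. Ctgf was matched under its current symbol Ccn2. A planned description of the glycine repeat in the proteins was not made here.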

Additional observations from a re-analysis of the deposited data

How the results depend on the processing

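No chain was called in any of the 14 alternative fits, while the count of genes called over the whole table moved from 0 to 186 without a filter, to 60 with DESeq2, to 61 without Bmal1WT replicate 1 and Bmal1KO replicate 1 together, and to between 0 and 156 with 1 library left out (156 without Bmal1KO replicate 1). Without Bmal1WT replicate 1 and Bmal1KO replicate 1 the fibrillar log2 difference of sums was 0.35 and that of fibrillar minus type IV 0.88. There Col3a1 was at 0.49, Col1a1 at 0.40 and Col5a2 at 0.12, against negative values with all libraries. These genes and the fibrillar sum were highest in Bmal1WT replicate 1 and lowest in Bmal1KO replicate 1. Leaving both out therefore raises them by construction. Averaging log2(CPM + 1) over chains, which gives scarce chains equal weight, moved the class of other collagens to 0.20. With 1 library left out, log2 fold changes ran from -0.60 to 0.19 for Col3a1, from -0.31 to 0.19 for Col1a1, from -0.15 to 0.26 for Col1a2, from -0.45 to 0.059 for Col4a2 and from -0.23 to 1.04 for Col4a3. Col4a3 was at -0.43 with limma voom, and Col1a1 at 0.021 with library size alone. What set single libraries apart, and why voom and scaling moved Col4a3 and Col1a1, was not tested. The median over all genes tested was 0.02, and 0.45 without a filter and 0.47 with DESeq2, which took in 34517 and 34476 genes, and 0.11 with library size alone.

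The replicate block called 0 genes and 0 chains and gave the same 6 chains at an unadjusted p under 0.05. Same-numbered libraries had deviations correlated at -0.07, 0.09 and -0.03, and differently numbered ones at -0.08 to 0.11. No pairing by number showed, but so few libraries cannot exclude one. The floor of 3 counts was 0.323 to 0.451 CPM, which covers counting error only.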
